A study of Caenorhabditis elegans with 2 samples.

Results

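In the authors' pooled AHA-1 list for Caenorhabditis elegans L1 larvae, 237 of the 30000 regions lay at the genes of small nucleolar RNAs (snoRNAs). The list was deposited as peaks and background together, so a region in it is not by itself a site of binding. A region was taken when its summit lay within 1000 bp upstream or 200 bp downstream of a gene start annotated as snoRNA by Ensembl on ce11. The signal of a region played no part in the choice. The window held a summit at 203 of the 346 annotated snoRNA genes, and 23 of the 237 regions were also in the authors' thresholded list of 530 peaks. That list held the 530 pooled regions of highest signal, so the thresholded share and the median signal of a set are not independent measures.

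The worm counterpart of ARNT, AHA-1 pairs with other basic helix-loop-helix PAS transcription factors to bind DNA. Small nucleolar RNAs guide the chemical modification of ribosomal and other RNAs. The C/D class guides ribose methylation and the H/ACA class guides pseudouridylation, each in a particle with its own core proteins. In worms many snoRNA genes lie inside introns of protein-coding genes and are released from the host transcript, while others have promoters of their own.

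Chromatin came from whole L1 larvae of mixed sex of strain OP124, which carries the mutation unc-119(ed3) III and the insertion wgIs124 for aha-1 fused to eGFP. The protein was thus read from 1 transgenic line, and the labels do not say which promoter drives it. The 2 biological replicates form 1 group, and nothing was varied. Counts and medians are therefore given beside the same values over all regions or all genes, with no test between conditions. In chromatin of whole larvae, binding in fewer cells and weaker binding per cell cannot be told apart. The number of reads behind the lists is unknown, and the signal is the authors' own value per region, on a scale that was not stated.

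The strongest regions are shown first as sequence, because they differ in where they lie. Peaks in the promoters of host genes came with snoRNA genes further on, in an intron. The 3 strongest are printed on the strand of the snoRNA gene, with GCGTG or its reverse complement CACGC in capitals, the core word bound by ARNT with the aryl hydrocarbon receptor.
Peak upstream of rpl-15, host of K11H12.12 and K11H12.13 (ce11 chrIV:654823-655023, minus strand): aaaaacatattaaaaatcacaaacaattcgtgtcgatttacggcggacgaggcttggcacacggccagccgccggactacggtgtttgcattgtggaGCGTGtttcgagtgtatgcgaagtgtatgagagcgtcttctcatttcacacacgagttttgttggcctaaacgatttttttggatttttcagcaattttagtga
Peak upstream of iff-2, host of F54C9.12 (ce11 chrII:8561368-8561540, minus strand): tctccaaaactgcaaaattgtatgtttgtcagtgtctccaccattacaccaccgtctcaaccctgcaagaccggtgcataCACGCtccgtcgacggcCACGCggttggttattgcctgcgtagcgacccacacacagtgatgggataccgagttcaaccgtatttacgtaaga
Peak upstream of cdc-48.1, host of C06A1.9 (ce11 chrII:10563478-10563678, minus strand): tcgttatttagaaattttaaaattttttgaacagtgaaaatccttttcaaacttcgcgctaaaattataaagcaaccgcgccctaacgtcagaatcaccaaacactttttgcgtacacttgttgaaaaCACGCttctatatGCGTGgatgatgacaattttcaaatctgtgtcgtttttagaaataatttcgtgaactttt

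The snoRNA genes served by 2 of these host genes are printed as DNA, with the ACA near the 3′ end in capitals, the box by which both were put in the H/ACA-like class.
K11H12.13 (ce11 chrIV:654229-654361, minus strand): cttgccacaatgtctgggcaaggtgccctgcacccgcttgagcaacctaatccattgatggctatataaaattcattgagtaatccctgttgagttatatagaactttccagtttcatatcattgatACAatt
C06A1.9 (ce11 chrII:10562952-10563064, minus strand): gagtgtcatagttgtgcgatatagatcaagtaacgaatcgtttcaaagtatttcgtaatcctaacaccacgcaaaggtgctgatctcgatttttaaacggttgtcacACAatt

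A second kind of peak lay inside the host gene, over the bases just before an intronic snoRNA gene. The windows of 2 such peaks are printed on the strand of the snoRNA gene, whose own bases are in capitals. They were chosen for display after their values were seen. Neither window holds GCGTG or ACGTG on either strand, and the longest stretch the windows share is agtgggcggagtc.
Peak in an intron of pxn-1 at ZK994.7 (ce11 chrV:8500421-8500621, plus strand): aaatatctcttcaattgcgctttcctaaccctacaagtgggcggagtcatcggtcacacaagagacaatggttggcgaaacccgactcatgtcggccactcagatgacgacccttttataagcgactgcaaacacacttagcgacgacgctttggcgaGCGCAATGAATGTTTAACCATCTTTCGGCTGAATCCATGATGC
Peak in an intron of plpr-1 at T06D8.11 (ce11 chrII:11224035-11224235, plus strand): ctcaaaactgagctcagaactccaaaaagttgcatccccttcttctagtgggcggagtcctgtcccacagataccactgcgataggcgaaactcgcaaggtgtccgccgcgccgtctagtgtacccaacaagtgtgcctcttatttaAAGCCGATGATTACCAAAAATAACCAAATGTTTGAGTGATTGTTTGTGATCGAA

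Genes of snoRNAs held a pooled region more often than genes at large, and a thresholded peak more often still. A region lay in the window of 203 of 346 snoRNA genes (58.7%), against 39.3% of all 46890 genes and 43.3% of the 19973 protein-coding genes. A thresholded peak lay at 26 snoRNA genes (7.51%), against 1.68% of all genes and 2.73% of protein-coding genes. Among regions, 23 of 237 (9.70%) were thresholded, against 1.77% of all pooled regions and 3.96% of those in protein-coding windows. The share was higher in the windows of snRNA genes, at 9 of 64 regions (14.1%), with a median signal of 5.57 and 35.9% in both replicates. Of the 203 genes, 158 had 1 region, 42 had 2 and 3 had 3. Conversely, 224 regions served 1 snoRNA gene, 12 served 2 and 1 served 3, so neighbouring genes share regions and are not independent.

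The pooled signal was also higher at snoRNA genes. Its median was 6.10 over the 237 regions, with quartiles of 4.13 and 11.8 and a highest value of 89.3. Over all pooled regions the median was 4.27, with quartiles of 3.47 and 5.60. The 9434 regions in protein-coding promoter windows outside snoRNA windows had a median of 4.51, and the 20329 regions outside both kinds of window had 4.16. The median GC content within 50 bp of the summit was 44.6% at snoRNA genes, 34.7% over all regions and 49.5% over all thresholded peaks. It did not follow the signal in every set. Regions in tRNA windows had a median GC content of 41.6% and a median signal of 4.82, and those in snRNA windows 36.6% and 5.57. The part of GC content in the signal was not tested.

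**Figure D1:**
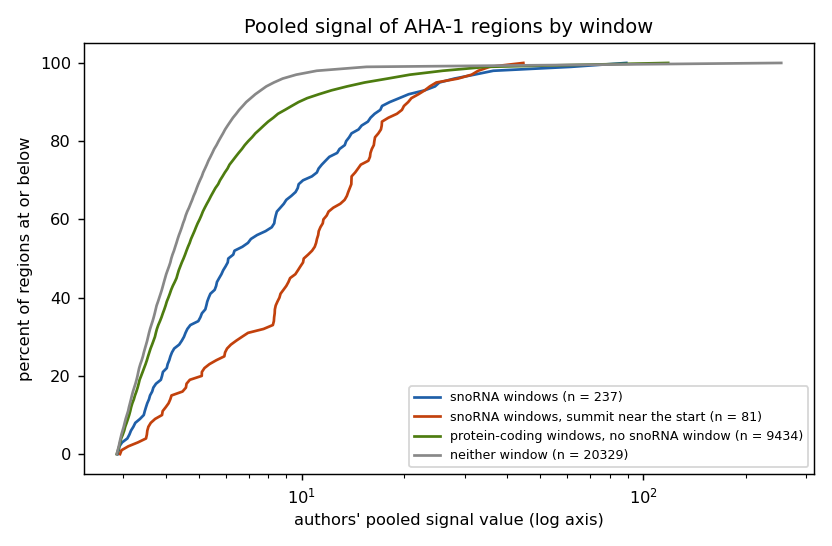
Cumulative share of regions in percent against the authors' pooled signal on a log axis, for all 237 regions at snoRNA genes, the 81 of them with a summit near the snoRNA start, 9434 regions in protein-coding windows alone and 20329 in neither. The curve of the snoRNA windows lies to the right of both backgrounds through most of its range, with medians of 6.10, 4.51 and 4.16, and the near-start regions lie further right with a median of 10.2.

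Regions at snoRNA genes were found in both replicates more often than regions at large. A region overlapping by at least 1 bp was listed in both replicates for 103 of 237 (43.5%, exact 95% interval 37.1 to 50.03% over regions), against 15.3% of all pooled regions. Another 69 were in replicate 1 alone, 43 in replicate 2 alone and 22 in neither. Over the 103, the replicate signals had a Spearman correlation of 0.38, and over all 4581 regions in both it was 0.40. Both are descriptions over regions that share 2 libraries. Of the 23 thresholded peaks at snoRNA genes, 22 were listed in both replicates (95.7%), close to the 95.1% of all 530 thresholded peaks. Among the 214 other regions 81 were (37.9%), against 13.8% of all regions outside the thresholded list. The Spearman correlation of the replicate signals was 0.06 over those 81 and 0.21 over the 22, against 0.21 over all regions outside the thresholded list and 0.27 over all thresholded peaks. Splitting by pooled signal narrows the range of values within each set.

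The place of the snoRNA gene divides the members. Of the 346 genes, 145 lay in an intron of a protein-coding gene on the same strand, 124 lay outside protein-coding genes, 50 overlapped an exon and 27 lay in an intron of a gene on the opposite strand. A region was found at 84 of the intronic genes (57.9%), 80 of those outside (64.5%), 21 of those over an exon (42.0%) and 18 of those antisense to an intron (66.7%). A thresholded peak was found at 14, 11, 1 and 0 of them. By strength the median signal was 7.05 over 93 regions at intronic genes, 6.20 over 100 at genes outside, 5.89 over 22 at exon-overlapping genes and 4.57 over 22 at antisense genes. Regions also within a protein-coding promoter window numbered 94 of 237 (39.7%), against 31.8% of all pooled regions. Of the 94, 16 were thresholded (17.0%), against 3.96% of all regions in protein-coding windows, and their median signal was 9.07. The other 143 lay in a snoRNA window alone, with 7 thresholded (4.90%) and a median of 5.55, against 0.718% thresholded outside both kinds of window. The nearest annotated start of any gene was that of a snoRNA for 153 regions, 11 of them thresholded, so for 84 regions another gene starts closer to the summit.

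Summits gathered just upstream of the snoRNA start. Of 251 pairs of a region and a gene, 35 had the summit 51 to 100 bp upstream and 33 had it 1 to 50 bp upstream, while no other 50-bp step held more than 15. The median position was 235 bp upstream over all pairs, 380 bp for intronic genes and 139.5 bp for genes outside. For the outermost starts of protein-coding genes it was 327 bp, and for other short noncoding genes it was nearer, 102 bp for tRNA and 157 bp for snRNA genes. The summit was 1 to 250 bp upstream in 36.3% of the snoRNA pairs, 34.8% of the tRNA pairs and 34.3% of the snRNA pairs. For the outermost protein-coding starts the share was 28.4%. A share of this size is thus not particular to snoRNA genes, but steps of 50 bp were counted for snoRNA genes alone. From 0 to 200 bp downstream lay 15.1% of the snoRNA pairs, 28.8% of the tRNA pairs and 21.4% of the snRNA pairs. The 26 pairs with a thresholded peak fell into separate places. In 14 the summit lay between 250 bp upstream and 200 bp downstream, in 12 more than 500 bp upstream, and in none between. These pairs come from 23 peaks, and the peak shared by F54E7.10 and F54E7.11 counts in both places. Measured from the nearest snoRNA start, 9 of the 23 peaks had the summit more than 500 bp upstream.

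**Figure D2:**
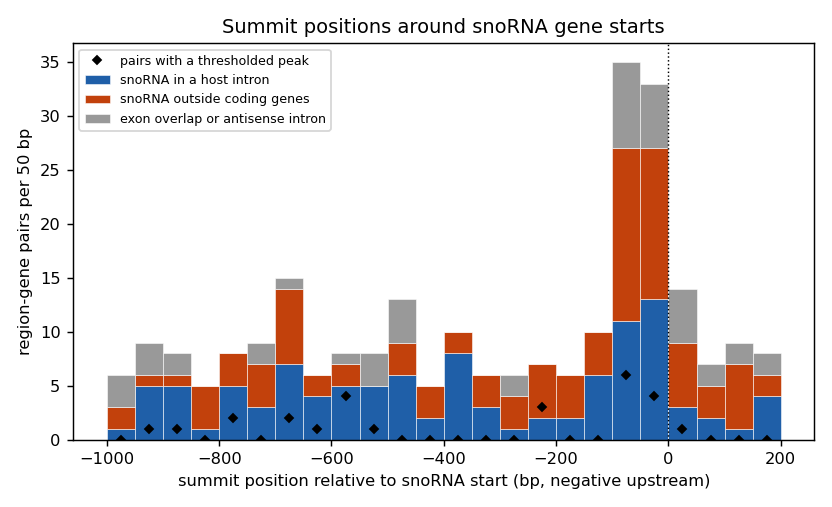
Number of region-gene pairs per 50 bp against the position of the summit relative to the snoRNA start in bp, stacked by the setting of the snoRNA gene. Black diamonds count pairs with a thresholded peak. The steps 51 to 100 bp and 1 to 50 bp upstream hold 35 and 33 pairs and no other step more than 15.

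A narrower window, 100 bp upstream and 50 bp downstream of the snoRNA start, was then set, after these counts were seen. It held the summit of 81 regions (34.2%), of which 11 were thresholded (13.6%), and 58.02% were listed in both replicates. Their median signal was 10.2. From the list of replicate 2 alone, 48 regions had a summit there, and from that of replicate 1 alone 64, with 14 and 8 of them among the 530 strongest of the list. The other 156 regions had 12 thresholded (7.69%), 35.9% in both replicates and a median of 5.40. Median GC content was 52.5% near the start and 39.6% elsewhere. The thresholded share was higher near the start at genes outside, 19.4% against 6.25%, but not at intronic genes, 11.1% against 12.1%. At exon-overlapping genes 1 region near the start was thresholded and 0 elsewhere, and at antisense genes 0 in both places. The difference in median signal had the same direction in every setting. Near the start and elsewhere it was 12.1 and 5.83 at intronic genes, 10.9 and 5.15 at genes outside, 8.53 and 5.53 at exon-overlapping genes, and 7.17 and 4.47 at antisense genes.

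**Figure D3:**
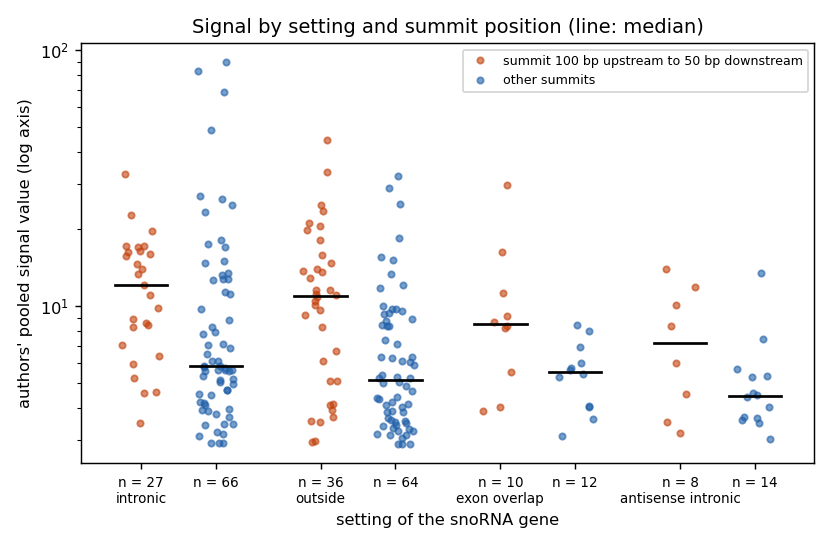
Pooled signal of each of the 237 regions on a log axis, by setting of the snoRNA gene, with the summit from 100 bp upstream to 50 bp downstream of the start (orange) or elsewhere in the window (blue). Horizontal lines are medians. The near-start median is the higher in each of the 4 settings, and the strongest intronic regions, up to 89.3, are among the other summits.

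The 4 strongest peaks lay in the promoter window of the host gene. Peaks of this kind numbered 8 of the 23 thresholded peaks, had a median signal of 37.8 and ran from 23.3 to 89.3. The peak at rpl-15, the host of K11H12.12 and K11H12.13 and the gene of a large-subunit ribosomal protein, lay on chromosome IV from 654849 to 654992. It had a signal of 89.3 pooled, 53.4 in replicate 1 and 34.6 in replicate 2, which ranked it 6, 9 and 4 in those lists. Its summit was 562 bp upstream of K11H12.13 and 347 bp upstream of rpl-15. The window of K11H12.8 holds it too. The peak at iff-2, a gene of the translation factor eIF5A family and host of F54C9.12, had signals of 82.7, 54.1 and 28.48, with its summit 73 bp upstream of iff-2 and 668 bp upstream of the snoRNA gene. The peak at cdc-48.1, the gene of an AAA ATPase and host of C06A1.9, had 68.7, 38.8 and 28.0, at 171 bp from the host start and 514 bp from the snoRNA start. All 3 were among the 24 strongest regions of each replicate, and all hold GCGTG within 50 bp of the summit, as printed above.

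The other 5 peaks of this kind had lower pooled signals. At rps-12, gene of a small-subunit ribosomal protein and host of F54E7.10 and F54E7.11, the signals were 48.7 pooled, 32.6 in replicate 1 and 14.7 in replicate 2, and the summit was nearer to ska-3, 130 bp from its start. At rps-29, host of B0412.6 and B0412.7, they were 26.9, 13.2 and 12.9, with snt-2 nearer, 70 bp away. At fbxl-2, host of B0393.10, they were 26.1, 18.9 and 6.10. At nap-1, gene of a nucleosome assembly protein and host of D2096.14, they were 24.8, 18.6 and 3.55, and the last value ranked 5169 in replicate 2. At rps-23, host of F28D1.13, they were 23.3, 16.8 and 6.53, with dpm-3 nearer, 239 bp away. At 3 of these 5 another gene thus starts closer to the summit than the host, and assignment to the host is by window alone.

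Host genes of ribosomal proteins account for 4 of these 8 peaks. Ribosomal protein genes were taken by symbol alone (rpl-, rps- or rla-), so any with another name counts among the other genes. Among 145 intronic snoRNA genes, 19 have a ribosomal protein host, and 17 of them had a region and 7 a thresholded peak (36.8%). Of 123 with hosts outside the ribosomal protein and translation factor lists, 66 had a region and 6 a peak (4.88%). Seen from the host, 4 of 13 ribosomal protein hosts (30.8%) had a thresholded peak in their own promoter window, against 29 of 68 ribosomal protein genes that host no snoRNA (42.6%). Of the 113 other hosts, 12 had one (10.6%), and of all protein-coding genes 2.73%. The share was thus lower for ribosomal protein hosts than for the rest of the family, a difference that was not tested. Intronic H/ACA-like genes had a peak in 11 of 53 cases (20.8%), and intronic genes that could not be classed by their boxes in 3 of 86 (3.49%). All 7 genes with a peak and a ribosomal protein host are among these 11. The hosts rpl-15, rps-12 and rps-29 each hold 2 of them, which share a peak. The class contrast therefore overlaps the host contrast. The box rule is coarse and left 257 of 346 genes unclassed.

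**Figure D4:**
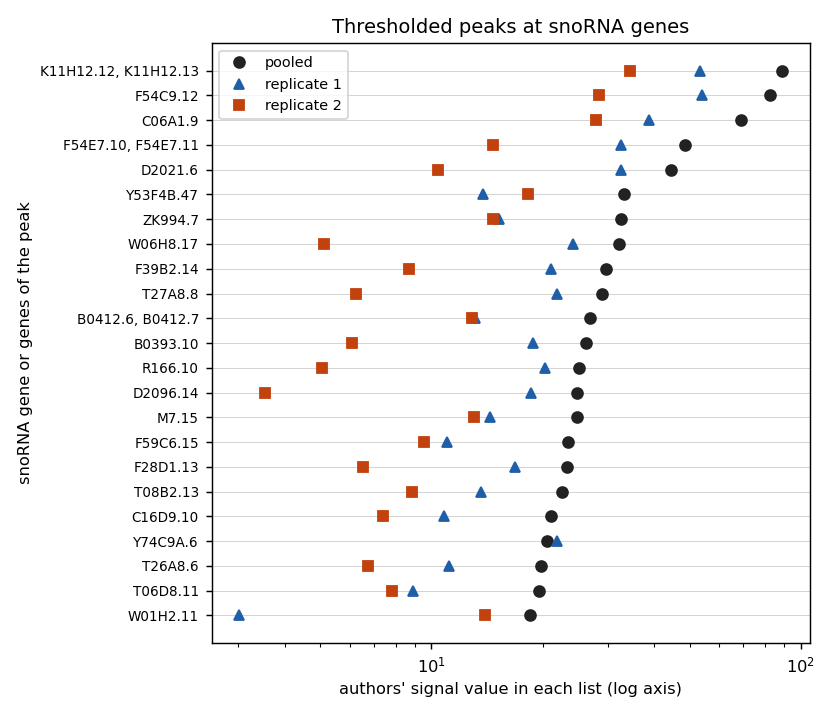
The authors' signal of the 23 thresholded peaks at snoRNA genes on a log axis, in the pooled list (circles) and in the lists of replicate 1 (triangles) and replicate 2 (squares), 1 row per peak in order of pooled signal. The 3 peaks in host promoters at the top are the strongest in both replicates, Y74C9A.6 has no square because replicate 2 does not list it, and W01H2.11 is the weakest in replicate 1 at 3.00.

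The 11 thresholded peaks near a snoRNA start had a lower median signal, 23.5, and a range from 19.6 to 44.6. Of these, 7 belonged to snoRNA genes outside protein-coding genes. D2021.6 on chromosome X had the strongest, with signals of 44.6 pooled, 32.6 in replicate 1 and 10.4 in replicate 2. Its summit lay 2 bp inside the gene and 181 bp upstream of sdha-1, which encodes a subunit of succinate dehydrogenase. Y53F4B.47 had 33.2, 13.8 and 18.3, with the summit 79 bp upstream of the snoRNA and 142 bp upstream of cmtr-1. M7.15 had 24.8, 14.4 and 13.1, with the summit 87 bp upstream. F59C6.15 had 23.5, 11.0 and 9.53, with the summit 54 bp upstream. These 4 peaks were also in a protein-coding window, although the snoRNA start was the closest start of any gene.

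The other 3 had no protein-coding start in reach. C16D9.10 had signals of 21.1, 10.8 and 7.38, with the summit 71 bp upstream and the nearest protein-coding start 2276 bp away. T26A8.6 had 19.8, 11.2 and 6.74, with the summit 44 bp upstream. Y74C9A.6, with the summit 22 bp upstream, had 20.5 pooled and 21.8 in replicate 1, and no region of replicate 2 overlapped it. In the first 2 of these, both replicates list the region, and the third rests on replicate 1.

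The remaining 4 near-start peaks overlap other genes. ZK994.7 in an intron of pxn-1, the gene of a peroxidasin, had signals of 32.7, 15.2 and 14.7, with its summit 58 bp upstream of the snoRNA and 5632 bp from the nearest protein-coding start. T06D8.11 in an intron of plpr-1 had 19.6, 8.91 and 7.83, with the summit 47 bp upstream. Another gene, not protein-coding, starts closer to that summit than the snoRNA, and the nearest protein-coding start was 1830 bp away. T08B2.13 in an intron of fars-1, which encodes a subunit of phenylalanyl-tRNA synthetase, had 22.6, 13.6 and 8.84, with the summit 19 bp upstream and also in the window of mrpl-23. F39B2.14, which overlaps an exon of tmem-107, had 29.7, 21.1 and 8.70, and the summit was nearer to tmem-107 at 37 bp than to the snoRNA at 98 bp. For all 4, both replicates list a region and replicate 1 gives the larger signal.

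Regions in the same intron as their snoRNA were common below the threshold as well. There were 46 such regions at 44 genes, with 27 summits near the start, 3 thresholded and a median signal of 8.32. Leaving out those within a protein-coding promoter window, 34 remained, with 2 thresholded (5.88%), a median of 7.71 and 35.3% in both replicates. The 7778 other pooled regions with a summit in an intron, outside both kinds of window, had 0.579% thresholded, a median of 4.12 and 11.5% in both replicates. The regions in snoRNA introns thus had a higher median than other intronic regions with protein-coding promoter windows set aside.

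The last 4 thresholded peaks were neither near a snoRNA start nor in a host's promoter. W06H8.17 had signals of 32.2, 24.2 and 5.12, with the summit 246 bp upstream and also in the window of W06H8.6, 786 bp from its start. T27A8.8 had 28.9, 21.8 and 6.23, with the summit 797 bp upstream. R166.10 had 25.1, 20.3 and 5.06, with the summit 219 bp upstream of the snoRNA and 546 bp from the kinase gene mnk-1. W01H2.11 had 18.5 pooled, 3.00 in replicate 1 and 13.96 in replicate 2, with ranks of 13573 and 119. At W06H8.17 and W01H2.11 another gene, not protein-coding, starts closer to the summit than the snoRNA. These 4 peaks were all at snoRNA genes outside protein-coding genes. The signal was higher in replicate 1 for the first 3 and in replicate 2 for W01H2.11.

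Just below the threshold, the 10 strongest regions lay in similar places. Their pooled signals ran from 18.2 at Y75B12B.12 to 16.3 at W04D2.7. Y75B12B.12 and C02F5.15, in an intron of rfs-1, were listed in replicate 1 alone, at 16.7 and 14.3. The summit at C02F5.15 was nearer to fbxl-1, at 102 bp, than to the snoRNA, at 135 bp. That at Y75B12B.12 was also in the window of Y75B12B.11, 173 bp away. Y43F8C.22, Y37E3.20, C16D9.11 and F01D5.12 had summits 38 to 83 bp upstream of the snoRNA in the same intron, and all 4 were listed in both replicates. W04D2.7, in an intron of inx-11, had its summit 2 bp inside the snoRNA gene, with 7.63 in replicate 1 and 7.91 in replicate 2. T23G11.12, which overlaps an exon, had its summit 88 bp upstream. D1007.20 and the pair Y24D9A.9 and Y24D9A.10 belong to the ribosomal protein hosts rpl-24.1 and rpl-7A, with pooled signals of 17.5 and 17.0.

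The most regions at any snoRNA gene were 3, at C16D9.11, C17D12.8 and T28B8.11. Those of C16D9.11 had pooled signals of 17.0, 5.14 and 3.11, of which the strongest was 69 bp upstream. At C17D12.8 they were 5.98, 4.49 and 3.69, and at T28B8.11 9.43, 8.35 and 4.17. At the upstream edge, the region at C41C4.16 was just inside at 982 bp with a signal of 7.05, and that at F17C11.15 was just outside at 1002 bp with a signal of 26.1, a thresholded peak. At the downstream edge, C54G4.16 was inside at 200 bp with 5.37 and F22D6.16 outside at 212 bp with 4.09.

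Core words of ARNT dimers were not more frequent at thresholded snoRNA peaks than at thresholded peaks elsewhere. GCGTG lay within 50 bp of the summit in 6 of 23 (26.1%, exact 95% interval 10.2 to 48.4%) and ACGTG in 2 (8.70%, interval 1.07 to 28.0%). Over all 530 thresholded peaks the shares were 27.2% and 19.8%. CACGTG, which contains ACGTG, was in 1 of the 23. Either GCGTG or ACGTG was present in 8 of 23 (34.8%), against 42.6% of the 507 thresholded peaks outside snoRNA windows. By place, it was in 4 of 8 host-promoter peaks, 2 of 11 near-start peaks and 2 of the other 4. Over all 237 regions either word was in 26.2%, against 15.1% of all pooled regions. Taken singly, GCGTG was in 18.1% against 6.83%, while ACGTG was in 11.0% against 9.23%. Median GC content was 44.6% against 34.7%, and its part in the word shares was not tested. Both strands were searched, and a match is a description of letters.

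Upstream of the snoRNA start, near-start genes shared other words. These were found by listing all 19320 words of 6 to 8 letters within 100 bp of the summits of the 81 near-start regions, ranking them by excess over all pooled summits, and then looking at the places of 16 words. Words and places were thus chosen for their excess on the same regions, and the shares are descriptions with no test. Among the 6179 words of 7 letters, TGGCGCA ranked 3, GCGGAAC 4 and GTCGGCC 7 by excess, and the other words ranked above them are not described here. On the strand of the gene, GCGGAAC from 85 to 55 bp upstream was found at 14 of 82 near-start genes (17.1%), at 5 of 121 genes with a region elsewhere in the window and at 4 of 143 with none. GTCGGCC from 75 to 40 bp upstream was found at 10, 2 and 6. TGGCGCA from 75 to 40 bp upstream was found at 11, 5 and 2. Of all 46890 genes, 0.198%, 0.100% and 0.107% hold these words there. At least 1 of the 3 was present at 28 of the 82 (34.1%), at 12 of the 121 (9.92%) and at 10 of the 143 (6.99%).

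Read the other way, 40 of the 50 snoRNA genes with any of the 3 words had a region (80.0%) and 28 had one near the start. Of the 296 genes without them, 163 had a region (55.1%) and 54 had one near the start. Because the words were chosen for their excess at near-start regions, these shares partly restate that choice and are not separate evidence. A thresholded peak was at 6 of the 50 and 20 of the 296. The words therefore describe a minority of the genes with a peak. Among snRNA genes, which are short noncoding genes of the splicing machinery and in worms also of spliced leaders, 24.8% of 129 hold GCGGAAC at the same place. At their own places, GTCGGCC was found at 1 of them (0.775%) and TGGCGCA at none, and no snRNA gene held the first 2 words together.

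GCGGAAC and GTCGGCC occurred together at 9 snoRNA genes, 7 of them near-start, and in all 9 the gap between them was 9 bases. These genes are not all independent in sequence: 7 of the 9 share a stretch of 15 letters in the 100 bases upstream with another of them, and 5 do so in the gene itself. The 90 bases upstream of 4 thresholded near-start genes are printed up to the base before the gene, with either word in capitals where it occurs at its place. Y53F4B.47 holds GCGGAAC alone and ZK994.7 holds GTCGGCC alone, while C16D9.10 and T26A8.6 hold both.
Y53F4B.47 (ce11 chrII:15025894-15025983, minus strand): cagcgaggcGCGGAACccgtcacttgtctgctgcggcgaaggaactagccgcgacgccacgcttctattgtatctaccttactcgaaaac
ZK994.7 (ce11 chrV:8500489-8500578, plus strand): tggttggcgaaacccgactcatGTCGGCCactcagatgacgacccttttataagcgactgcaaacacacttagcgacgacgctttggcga
C16D9.10 (ce11 chrV:8247962-8248051, minus strand): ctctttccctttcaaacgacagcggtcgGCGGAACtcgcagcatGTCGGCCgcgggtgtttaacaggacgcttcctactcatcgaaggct
T26A8.6 (ce11 chrIV:8428740-8428829, minus strand): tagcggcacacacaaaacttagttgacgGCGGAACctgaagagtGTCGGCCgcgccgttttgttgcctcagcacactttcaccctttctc

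TGGCGCA was followed by GGTTC from 50 to 1 bp upstream at 9 snoRNA genes, 7 near-start and 2 with a region elsewhere, and none without a region. The gap was 37 bases in 7 of the 9. TGGC and GGTTC are the first letters of the A and B boxes, the promoter elements inside tRNA genes. GGTTC is shorter than the words that were listed and ranked, so it did not come from that list. Of these 9 genes, 4 share a stretch of 15 letters upstream with another. Of the 9, T08B2.13 has a thresholded near-start peak, described above and not printed. The 4 genes printed here have none, and their pooled signals were 14.02, 10.9, 8.47 and 8.30 in the order shown, with TGGCGCA and GGTTC in capitals.
ZK643.9 (ce11 chrIII:8937677-8937766, plus strand): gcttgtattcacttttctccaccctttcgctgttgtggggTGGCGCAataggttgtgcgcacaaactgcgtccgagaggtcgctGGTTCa
W03C9.9 (ce11 chrII:11960808-11960897, plus strand): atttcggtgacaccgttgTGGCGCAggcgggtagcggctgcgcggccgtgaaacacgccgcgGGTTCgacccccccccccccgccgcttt
W08G11.6 (ce11 chrV:16370129-16370218, plus strand): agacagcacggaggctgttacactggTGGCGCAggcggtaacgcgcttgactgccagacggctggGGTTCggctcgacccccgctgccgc
F19H8.6 (ce11 chrII:14617053-14617142, plus strand): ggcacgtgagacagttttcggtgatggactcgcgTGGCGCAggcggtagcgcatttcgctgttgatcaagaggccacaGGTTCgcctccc

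The longer word GGTTCGA, the start of the B box, lay within 200 bp of the start of 25 snoRNA genes (7.23%), against 65.7% of tRNA genes and 3.89% of all genes. Of the 25, 18 had a region (72.0%) and none a thresholded peak, against 57.6% and 8.10% of the 321 snoRNA genes without the word. None of the 25 has an annotated tRNA gene within 200 bp of its start. The 10-letter core GTGGGCGGAG, part of the stretch shared by the intron windows of ZK994.7 and T06D8.11, lay within 100 bp of the summit in 4 of the 81 near-start regions, which include these 2, and in none of the other 156. It was present in 0.363% of all pooled regions and 2.08% of all thresholded peaks. It was looked for after those windows had been seen.

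The genes of the snoRNP core proteins were examined in the same windows. Of 8 listed genes, 7 had a region and 3 a thresholded peak, against 43.3% and 2.73% of protein-coding genes. Among C/D proteins, nol-58 had signals of 27.9 pooled, 18.1 in replicate 1 and 11.2 in replicate 2. The gene of the methyltransferase fibrillarin, fib-1, had 18.6, 12.8 and 3.69. For nol-56, itself the host of K07C5.10, K07C5.11, K07C5.12 and K07C5.18, the values were 13.2, 8.75 and 4.95, without a thresholded peak. For snu-13 the pooled signal was 9.77, with a region in replicate 2 alone.

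Among H/ACA proteins, the Nhp2 gene Y48A6B.3 had the strongest region of the list, with signals of 29.3, 18.8 and 8.86. The Nop10 gene nola-3 had 16.3, 12.7 and 2.54, and the Gar1 gene garr-1 had 4.81 pooled and a region in replicate 1 alone. The gene of the pseudouridine synthase dyskerin, dkc-1, had no pooled region in its window. Peaks were thus found at proteins of both classes of particle, 2 for C/D and 1 for H/ACA.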

How the data were processed

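Chromatin immunoprecipitation sequencing of AHA-1 fused to eGFP was analysed from lists of peaks for 2 biological replicates, numbered in the labels. The authors deposited a relaxed list per replicate, a relaxed pooled list and a list kept from it by the irreproducible discovery rate, each made against a control, per the labels and accompanying text. The signal of each region is the authors' deposited value, and its scale is not stated. Aligner, caller, threshold and depth are not given in the sources used here, so intervals cover regions and not reads. Labels give fragments of 150 to 350 bp. The replicates formed 1 group and no difference between conditions was tested.

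Lists on ce11 were joined to Ensembl release 115 (WBcel235) and the RefSeq sequence of that assembly with Python 3.11.15, pandas 2.3.3 and NumPy 2.4.6, and correlations were made with SciPy 1.17.1. Lists on ce10 were not used. Coordinates are 1-based. A replicate value is the strongest replicate region overlapping the pooled region, so neighbouring regions can share one. Protein-coding windows used every annotated transcript start. A snoRNA was called C/D-like with TGATGA in its first 20 bases and CTGA in its last 20, and H/ACA-like with ACA ending 2 to 4 bases before its end. Window assignment was tested on simulated summits. Peak lists give no counts, so no model was fitted.

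The members and gene lists were chosen with earlier results of these data known. Genes were named by rule: every thresholded peak in a snoRNA window, the 10 strongest other regions, those at the window edges, genes with most regions and all snoRNP genes. Near-start windows, upstream words and their printed examples were chosen after values were seen. Alternatives were other windows, nearest starts, single replicates, the stronger 50% of the thresholded peaks and stricter overlap.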

Additional observations from a re-analysis of the deposited data

How the results depend on the processing

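Of 47 alternatives, 27 stayed within the limits set for a stable value (1.5 times for a count, the interval or replicate spread otherwise) and 20 moved further. The values over all regions or all genes were not recomputed under the alternatives, so only the sizes at snoRNA genes are compared here. With the window cut to 500 bp upstream and 100 bp downstream there were 151 regions, 14 thresholded peaks at 14 snoRNA genes, a median signal of 8.35 and 51.0% in both replicates. With 2000 bp upstream and 500 bp downstream there were 384 regions, with 32.6% in both replicates. Counting only summits whose nearest start of any gene was that of a snoRNA left 153 regions at 133 genes, 11 thresholded peaks at 11 genes, 24.8% in protein-coding windows and 31.4% at intronic genes. Among the stronger 50% of the 530 peaks 11 lay at snoRNA genes, 14 genes in all. The shorter list lowers both counts by itself, so their place among the 20 does not bear on their stability. The share in both replicates was 34.6% when 50% of the shorter region had to overlap, and 34.6% when the pooled summit had to lie in the replicate region. Summits within 50 bp of the start, a step added after seeing the data, numbered 47, with 5 thresholded. From the list of 1 replicate alone, the near-start regions numbered 64 without replicate 2 and 48 without replicate 1, against 81 in the pooled list. In the same lists there were 177 to 203 regions at 164 to 175 genes, with 23 to 24 among the 530 strongest at 27 to 29 genes, and 8 to 14 of them near the start. No paired analysis was possible because both replicates belong to 1 group. The depth behind each list is unknown, so a gene without a region cannot be called unbound.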
